A study of Rattus norvegicus with 3 samples.

Results

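Transcripts of 10 inducible inhibitors of MAP kinase signalling were examined in the mTAL, the medullary part of the thick ascending limb of the rat kidney, a water-tight tubule segment that takes up salt. The genes encode the MAP kinase phosphatases Dusp1, Dusp2, Dusp4, Dusp5, Dusp6 and Dusp10, the Sprouty proteins Spry1, Spry2 and Spry4, and the ErbB receptor inhibitor Errfi1. They were taken by name: every probe set annotated with 1 of these symbols alone was used, which gave 13 probe sets for the 10 genes, among 14218 measured genes in all. Dusp1 had 2 probe sets, Dusp6 had 3, and each of the others had 1. The series holds 3 Affymetrix arrays of 1 group, with no other tissue, treatment or undigested control. The mTAL came from male Sprague-Dawley rats aged 7 to 8 weeks. All received 250 u of heparin with 1 mg of furosemide, a loop diuretic, by intraperitoneal injection 30 min before death. Tubules were freed by perfusion with collagenase (1 mg/ml) plus hyaluronidase (0.5 mg/ml) and by 60 min of digestion of the outer medulla, then separated on 33.3% Percoll. For all samples 95% oxygen with 5% CO2 is also listed. The labels do not say whether the 3 samples are separate animals or pools, so the p-values rest on sample-to-sample spread that could be technical.

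Growth factor receptors activate RAS and then the kinases RAF, MEK and ERK, while stress activates the related kinases JNK and p38. MAP kinase phosphatases switch these kinases off by removing phosphate from both the threonine and the tyrosine of their activation loop. Sprouty proteins act higher up, between the receptor and RAF, and Errfi1 (also called MIG6 or RALT) binds the kinase domain of the EGF receptor family. Many of these inhibitors are themselves induced by the pathway they restrain, so that their transcripts are commonly read as a record of recent signalling. The thick limb is a main renal source of the EGF precursor.

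Of the 10 genes, 5 were detected: Dusp1, Dusp6, Spry1, Spry2 and Errfi1. Dusp5 and Spry4 lay close to the cutoff without passing the test, and Dusp2, Dusp10 and Dusp4 had mean log2 signals below it. The cutoff was set on each array at the 95th percentile of 75 genes known from other tissues, which came to 505, 474 and 477 for replicates 1, 2 and 3. A gene counted as detected when its log2 signal minus the cutoff was above 0 in limma's one-sided test, with a Benjamini-Hochberg adjusted p under 0.05 over all genes. By this rule 49.8% of all genes passed, and the feedback genes did so at about that share. The same 5 genes had an unadjusted p under 0.05, which 51.3% of all genes had. When each probe set was tested by itself, 8 of the 13 were detected, against 40.7% of all probe sets. The SE given with a margin is limma's moderated SE, which draws on the spread of all genes as well as on the 3 arrays. Signals are given on the linear scale of the deposited values, in the order replicate 1, 2 and 3. Hybridisation strength varies by probe set, and the feedback genes are therefore not ranked against each other by signal. The cutoff, which comes from other genes, and the sums over gene lists are not free of this limit.

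**Figure D1:**
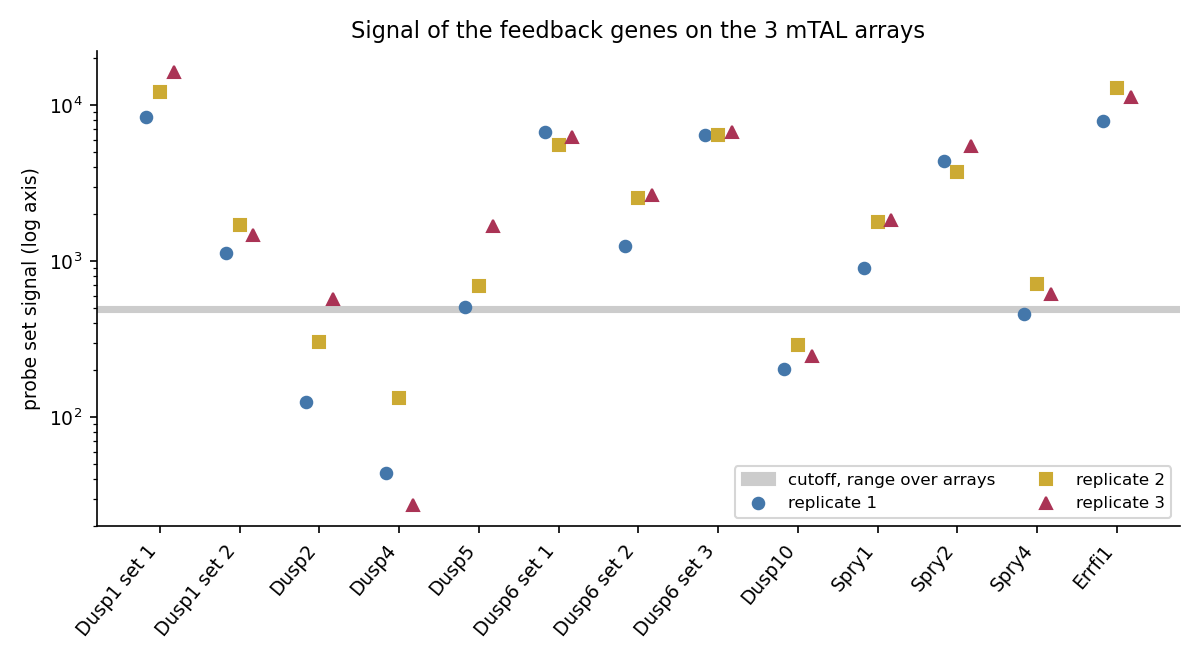
Signal of the 13 probe sets on a log axis, with 1 point per array and a grey band for the range of the cutoff over the 3 arrays (474 to 505). The 8 probe sets of Dusp1, Dusp6, Spry1, Spry2 and Errfi1 lie above the band on every array, Dusp5 touches it on replicate 1, and Dusp4 and Dusp10 lie below it throughout.

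Dusp1, a nuclear phosphatase that acts on p38, JNK and ERK and a classic immediate early gene, had signals of 8366, 12068 and 16237. The lowest value was that of replicate 1, and replicate 3 was 1.94 times as high. The mean log2 signal stood 4.60 ± 0.25 (SE, n = 3) above the cutoff (limma, adjusted p = 0.000327). The other Dusp1 probe set gave 1121, 1709 and 1475, again lowest on replicate 1 but highest on replicate 2. Both Dusp1 probe sets were detected, and they differed in which of replicates 2 and 3 was higher.

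Dusp5, a nuclear phosphatase selective for ERK, had signals of 507, 694 and 1668. Replicate 3 stood apart from the other arrays, and the signal on replicate 1 was 0.01 log2 units above that array's cutoff. With a mean 0.79 ± 0.42 (SE, n = 3) above the cutoff, Dusp5 was above it on 3 of 3 arrays but did not pass the limma test (adjusted p = 0.141). Dusp2, a nuclear phosphatase best known from activated leukocytes, had 125, 304 and 569, above the cutoff on replicate 3 alone (limma, adjusted p = 1). For Dusp5 and Dusp2 the arrays had the same order as for the first Dusp1 probe set.

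The promoters of Dusp1 and Dusp5 are shown because each holds a motif that few promoters hold, a choice made after the motifs were counted. The promoter of Dusp6, whose signal was the steadiest in the probe set that stood for the gene, is shown beside them. Each window runs from 250 bases before to 50 after an annotated start (RefSeq, GRCr8), 5′ to 3′ on the plus strand. The windows are chr10:17184603-17184902 for Dusp1, chr1:262543524-262543823 for Dusp5 and chr7:35979354-35979653 for Dusp6. Capitals mark the cyclic AMP response element TGACGTCA, the CArG box bound by serum response factor, and the EGR motif GCGNGGGCG, searched on both strands.
Dusp1: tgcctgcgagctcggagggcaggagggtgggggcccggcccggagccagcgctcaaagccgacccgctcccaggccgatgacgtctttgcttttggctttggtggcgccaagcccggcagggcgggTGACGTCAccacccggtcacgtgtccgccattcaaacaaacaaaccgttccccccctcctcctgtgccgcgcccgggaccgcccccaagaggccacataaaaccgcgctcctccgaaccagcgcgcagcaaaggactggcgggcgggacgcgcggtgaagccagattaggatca
Dusp5: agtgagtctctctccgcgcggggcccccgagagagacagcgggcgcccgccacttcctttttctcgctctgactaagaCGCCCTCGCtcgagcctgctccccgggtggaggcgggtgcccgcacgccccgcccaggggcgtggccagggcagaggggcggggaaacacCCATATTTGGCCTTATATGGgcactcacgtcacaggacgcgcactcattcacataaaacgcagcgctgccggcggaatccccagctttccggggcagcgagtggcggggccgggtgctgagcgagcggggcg
Dusp6: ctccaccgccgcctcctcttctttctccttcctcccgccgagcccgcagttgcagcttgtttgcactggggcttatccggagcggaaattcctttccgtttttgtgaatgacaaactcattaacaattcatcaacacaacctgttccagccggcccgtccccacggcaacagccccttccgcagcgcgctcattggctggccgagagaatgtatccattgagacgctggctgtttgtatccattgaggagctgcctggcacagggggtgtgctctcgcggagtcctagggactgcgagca

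Windows were matched for 9 of the 10 genes, all but Dusp4, with 2 windows for Spry2. A feedback gene was counted when any of its windows held a motif, while the shares of all windows count each window by itself. The full cyclic AMP response element stood in Dusp1 alone of the 9, its first base 124 bases before the start (chr10:17184729-17184736), and 1.83% of all 33469 windows held it. Its shorter form TGACG, which the full element contains, stood in 5 of the 9 (Dusp1, Dusp2, Dusp5, Spry2 and Errfi1) and in 21.2% of all windows. The CArG box stood in Dusp5 alone, in 2 copies side by side that begin 82 and 72 bases before the start (chr1:262543692-262543701 and chr1:262543702-262543711). It was found in 1.64% of all windows. The EGR motif, for the early growth response factors, stood in 4 of the 9 (Dusp2, Dusp5, Spry2 and Errfi1) and in 4.98% of all windows. The windows of the feedback genes were rich in G and C, from 56.0% in Spry4 to 76.3% in one of Spry2, against a median of 51.7% over all windows. Neither the AP-1 motif TGANTCA (7.33% of all windows) nor the ETS motif CCGGAAG (8.75%) was found in the 9. A match is a run of letters and does not show that a factor binds there.

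Dusp6, the cytoplasmic phosphatase selective for ERK, had almost the same signal on every array, at 6476, 6476 and 6712 in the probe set that stood for the gene. Its log2 SD of 0.03 was smaller than that of 97.1% of genes with a mean above the cutoff, and it was detected with a margin of 3.76 ± 0.09 (SE, n = 3; limma, adjusted p = 0.000113). A further probe set gave 6717, 5543 and 6234, also without a large gap between arrays. The remaining one gave 1251, 2559 and 2658, so that replicates 2 and 3 were about alike and replicate 1 lay 0.94 and 0.97 log2 units below them after each array was centred on its median gene. All 3 Dusp6 probe sets were detected, but they disagreed on whether replicate 1 was low. The unusual steadiness of Dusp6 therefore holds only for the probe set that stood for the gene. The further and the remaining one had log2 SDs of 0.14 and 0.61. The median was 0.15 over genes with a mean above the cutoff.

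Dusp4 and Dusp10 were not detected. Dusp4, a nuclear phosphatase of ERK, JNK and p38, had 43.6, 132 and 27.4, all below the cutoff and with replicate 2 highest. Dusp10, which prefers JNK and p38, had 204, 288 and 245, below the cutoff on all arrays and within a 1.41-fold range. Both had an adjusted p of 1 in limma. Signals this far down do not show that a transcript is missing, only that it was not seen above the cutoff.

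Among the Sprouty genes, Spry2 and Spry1 were detected. Spry2 had 4417, 3738 and 5500, with replicate 2 lowest, at a margin of 3.21 ± 0.15 log2 units (SE, n = 3; limma, adjusted p = 0.000248). Spry1, needed in mice for normal branching of the ureteric bud, had 902, 1784 and 1823. Its signals on replicates 2 and 3 were nearly equal, and that of replicate 3 was 2.02 times that of replicate 1. The margin of Spry1 was 1.56 ± 0.29 (SE, n = 3; limma, adjusted p = 0.0103), and the call was lost without replicate 2 (adjusted p = 0.0571) or without replicate 3 (0.0517). Spry4 had 456, 710 and 619, below the cutoff on replicate 1 and above it on the others, and was not called (margin 0.27 ± 0.19, SE, n = 3; limma, adjusted p = 0.226).

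Errfi1 had signals of 7973, 12832 and 11334, lowest on replicate 1 and highest on replicate 2. It was detected at 4.44 ± 0.20 log2 units above the cutoff (SE, n = 3; limma, adjusted p = 0.000222). The receptors it is known to inhibit were detected in part. Egfr (750 ± 53.5, SD, n = 3; limma, adjusted p = 0.00797) and Erbb2 (1333 ± 130; adjusted p = 0.000718) passed the test, while Erbb3 (145 ± 4.99; adjusted p = 1) and Erbb4 (157 ± 121; adjusted p = 1) did not. These receptors were named for their tie to Errfi1, after their values were seen.

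The number of detected feedback genes depended on the cutoff more than on the arrays. With Myh1 left out of the other-tissue genes, 7 of the 10 were detected, adding Dusp5 (adjusted p = 0.0451) and Spry4 (0.0435), against 53.9% of all genes. Myh1, a muscle myosin gene, had a signal of 42933 ± 2949 (SD, n = 3) in these arrays, far above the cutoff. The cutoff is a percentile, so the size of the Myh1 signal does not move it, only its place among the ranked genes. Mbp, Krt10 and Cela1 also lay above the cutoff and were not left out in turn. At the 99th percentile only Dusp1 and Errfi1 were detected, against 6.4% of all genes. Another cutoff was the highest signal on each array among the TrpnX control probe sets, which have no target in the samples. With it all but Dusp4 were detected, against 78.3%.

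**Figure D2:**
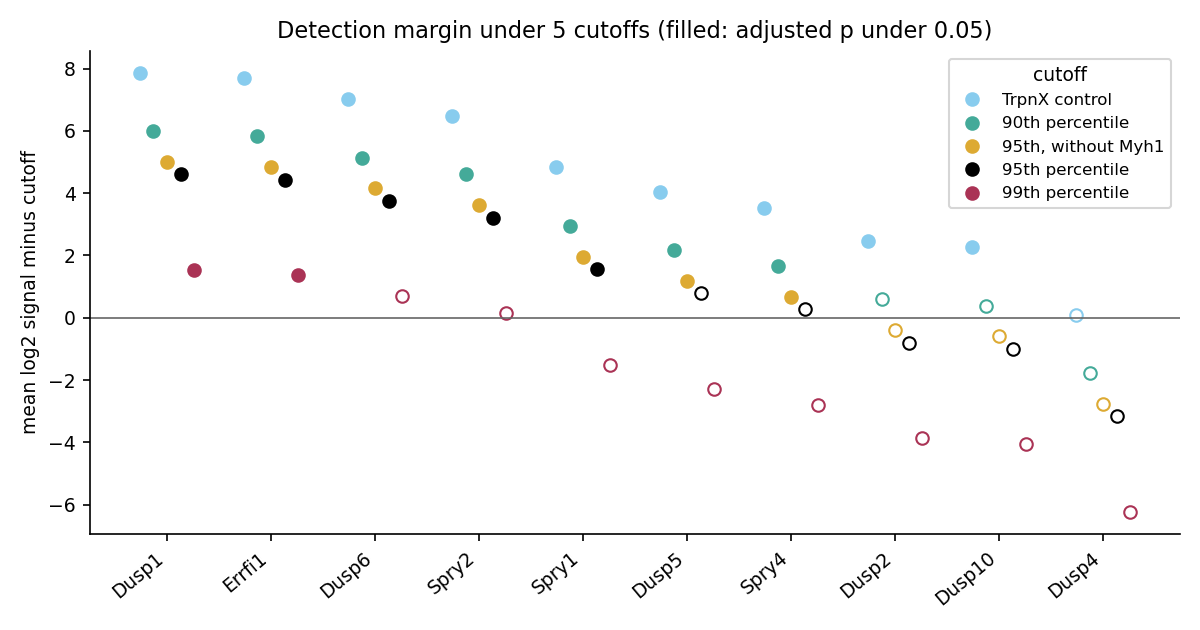
Mean log2 signal minus the cutoff for each of the 10 genes under 5 cutoffs, ordered by the margin at the 95th percentile, with filled points for an adjusted p under 0.05. Dusp1 and Errfi1 are filled under every cutoff shown, and Dusp5 and Spry4 are filled without Myh1 (margins of 1.19 and 0.67) but open with it (0.79 and 0.27).

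Many of the feedback genes had their lowest signal on replicate 1, a count chosen after the values were seen. After centring of the arrays on their median genes, 7 of the 10 were lowest there (Dusp1, Dusp2, Dusp5, Dusp10, Spry1, Spry4 and Errfi1), against 25.4% of all genes. Among the 7 with a mean above the cutoff 5 were, against 18.7% of genes with such a mean. The median deviation of these 7 from the mean of the other arrays was -0.49 log2 units on replicate 1, 0.02 on replicate 2 and 0.36 on replicate 3. Over all 7872 genes with a mean above the cutoff the medians were 0.13, -0.05 and -0.06. On replicate 3, 5 of the 10 were highest (Dusp1, Dusp2, Dusp5, Spry1 and Spry2, with Spry1 only 0.003 log2 units above replicate 2), against 25.8% of all genes. Each array is a single sample, so these differences have no test.

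The members did not share one pattern across the arrays. Dusp5, Spry1 and Dusp1 were higher on replicate 3 than on replicate 1 by 1.60, 0.90 and 0.84 log2 units, and 3 of the 7 thus differed by 0.5 or more, against 5.81% of genes with a mean above the cutoff. Spry1, Errfi1 and Spry4 were higher on replicate 2 than on replicate 1 by 0.90, 0.60 and 0.55, again 3 of the 7, against 5.97%. Replicate 3 exceeded replicate 2 by 0.5 or more for Dusp5 (1.24) and Spry2 (0.53), against 5.51%. Dusp6 differed by less than 0.1 in all 3 pairs in the probe set that stood for the gene. Spry2 was lower on replicate 2 than on replicate 1 (-0.33). All these counts of array differences, and those of lowest and highest arrays, rest on 1 probe set per gene. For replicate 3 minus replicate 1, the other Dusp1 probe set gave 0.28, and the others of Dusp6 gave -0.22 and 0.97. The log2 SD of Dusp5, 0.89, was larger than that of 98.3% of genes with a mean above the cutoff, while the median of the 7 was 0.36 and that of all such genes 0.15.

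**Figure D3:**
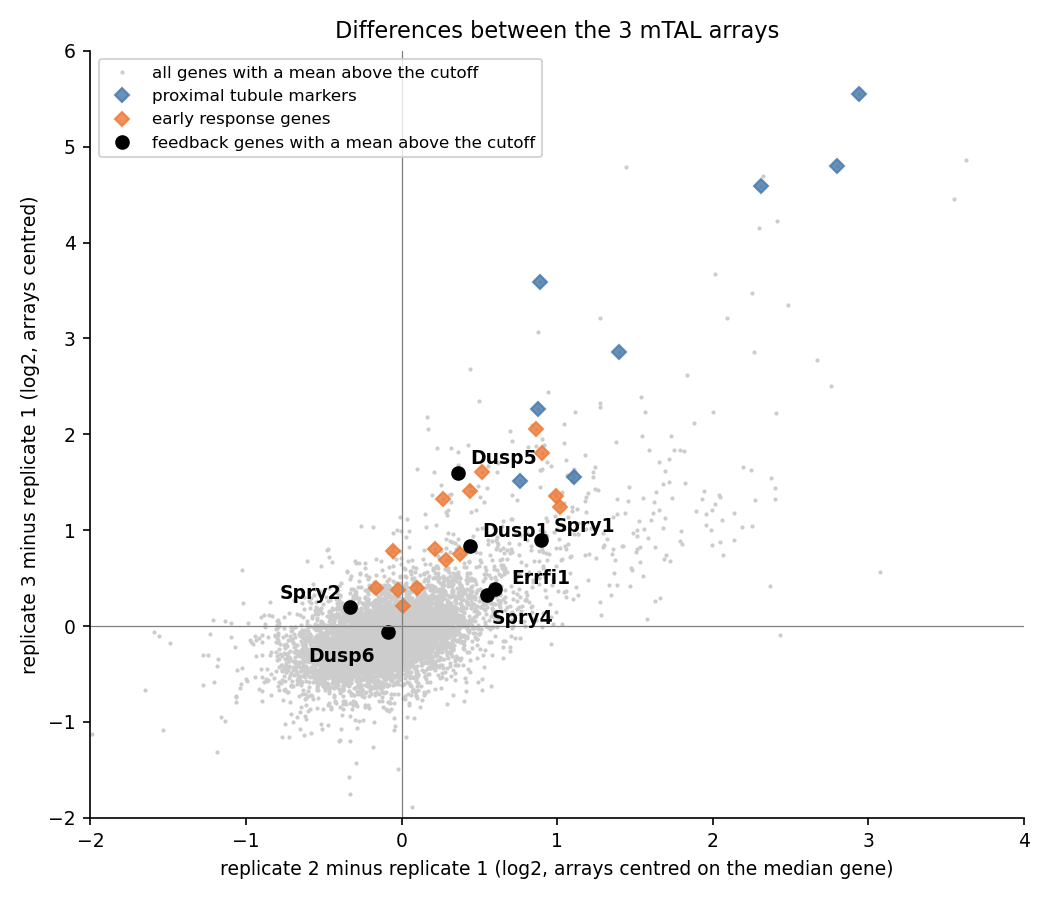
Difference of replicate 2 (horizontal) and of replicate 3 (vertical) from replicate 1, in log2 units after centring of the arrays, for all genes with a mean above the cutoff (grey, 6 of them outside the axes), proximal tubule markers (blue), early response genes (orange) and the 7 feedback genes with such a mean (black). Dusp5 lies high and near the vertical line at 0.36 and 1.60, Spry1 lies on the diagonal at 0.90 and 0.90, and Dusp6 lies at -0.09 and -0.07.

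The early response genes, the AP-1 and EGR factors and other rapid targets of ERK, were set beside the feedback genes as a related group. Of 21 measured, 13 were detected. Among the detected were Egr1 (32269 ± 5918), Fos (27769 ± 3238) and Jun (26474 ± 6196; SD, n = 3 each), and the ETS factor gene Etv4 (29.8 ± 27.2) was not detected. All 15 early response genes with a mean above the cutoff were highest on replicate 3, as were 4 of the 7 feedback genes (Dusp1, Dusp5, Spry1 and Spry2), against 21.4% of genes with such a mean. The median difference of replicate 3 from replicate 1 was 0.80 for these early response genes and 0.39 for the feedback genes. Whether the groups differ in this was not tested.

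The makeup of the preparations moved with these array differences. All 14 measured thick limb markers were detected, among them Umod and Egf, and their summed signal was 271866, 264606 and 248143 on replicates 1, 2 and 3. The summed signal of 18 proximal tubule markers was 7200, 25235 and 78613, with Hao2 and Ggt1 detected. Endothelial markers (6 of 10 detected, among them Esam and Plvap) summed to 16099, 27702 and 24859, thin limb markers (4 of 5, including Cryab and Aqp1) to 27023, 71504 and 41126, and principal cell markers (4 of 10, including Tfcp2l1 and Aqp2) to 12113, 17334 and 27107. Leukocyte markers (3 of 12, including Lyz2 and Fcer1g) summed to 3156, 5548 and 4785, stromal markers (1 of 10, Cspg4) to 2778, 5159 and 5425, and podocyte markers (1 of 5, Podxl) to 1574, 2725 and 2194. Red cell markers (1 of 2, Hbb) summed to 1338, 1545 and 6134, and none of 5 intercalated cell and 5 distal convoluted tubule markers was detected. No marker was listed at 0. Every one of these lists of other cell types thus had its lowest sum on replicate 1, where the 10 feedback genes also had theirs (29470, 39027 and 44735). The sums are of uncentred signals, and a lowest sum there was common. The early response genes, receptors, ERK cascade, JNK, p38 and ERK5 modules and other dual-specificity phosphatases had it too. The ligands and the other inhibitors had their highest sum there. The marker sums rest on the markers of high signal: over all measured markers the median deviation on replicate 1 was 1.60 log2 units for podocytes and -0.01 for leukocytes. Single markers could also differ from their sum. Cspg4 (1173, 902 and 899) and Esam (5582, 6775 and 5457) were lowest on replicate 3. The other named markers of other cell types were lowest on replicate 1. The part of other cell types in the array differences was not tested. The 3' Actb control exceeded the 5' one by 1.48, 1.18 and 1.95 log2 units, a gap that widens as RNA degrades. For Gapdh the gap was 0.51, 0.43 and 0.60. Both gaps were smallest on replicate 2 and largest on replicate 3, and their part in the array differences was not tested. In such bulk samples, fewer cells of a type and less RNA per cell cannot be told apart.

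The rest of the pathway was detected unevenly. Of 15 measured ligand genes 7 were detected, among them the thick limb product Egf (45193 ± 905), Igf1 (16738 ± 2637) and the angiogenic factor Vegfa (10715 ± 800), and the EGF family ligand Areg was not (27.3 ± 27.8; SD, n = 3 each). Of 15 receptor tyrosine kinase genes 8 were detected, among them Igf1r (4275 ± 407), Fgfr1 (2246 ± 224) and the endothelial VEGF receptor Kdr (2150 ± 749), while the GDNF receptor Ret was not (36.2 ± 25.9). Adaptors and kinases of the ERK cascade were detected in 12 of 13 cases, the exception being the scaffold gene Ksr1 (217 ± 67.3). The detected ones included the phosphatase Ptpn11 (4034 ± 375), the kinase Map2k2 (3967 ± 101) and the adaptor Grb2 (3541 ± 151). The other 7 listed genes of the cascade were not analysed here. Of 14 genes of the JNK, p38 and ERK5 modules 8 were detected, among them the upstream kinase Map3k1 (7441 ± 318), the p38 kinase Mapk14 (4736 ± 48.8) and Map2k3 (4040 ± 683), and Mapk11, another p38 kinase, was not (58.2 ± 1.81). For all genes the detected share was 49.8%.

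Other dual-specificity phosphatases and other inhibitors were detected in part. Of 14 further dual-specificity phosphatase genes 6 were detected, among them Dusp3 (2388 ± 57.2), Dusp14 (2141 ± 461) and Dusp22 (1518 ± 180), atypical members that lack the MAP kinase binding domain, while Dusp15 was not (52.4 ± 35.3; SD, n = 3 each). Of 10 further inhibitors of receptors, RAS or RAF 6 were detected, among them the RAF inhibitor Pebp1 (30721 ± 2299), Socs5 (6735 ± 684) and the ubiquitin ligase Cbl (1653 ± 182), and Spry3 was not (51.8 ± 15.98). Among the other dual-specificity phosphatases with a mean above the cutoff 1 of 7 was lowest on replicate 1, and among the other inhibitors 2 of 6. The corresponding count for the feedback genes was 5 of 7, and for the early response genes 12 of 15. It was 9 of 9 for proximal tubule markers, 7 of 8 for endothelial markers and 0 of 14 for thick limb markers. Being lowest on replicate 1 was thus not particular to the feedback genes. Over all genes with such a mean the share was 18.7%, and these differences were not tested.

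**Figure D4:**
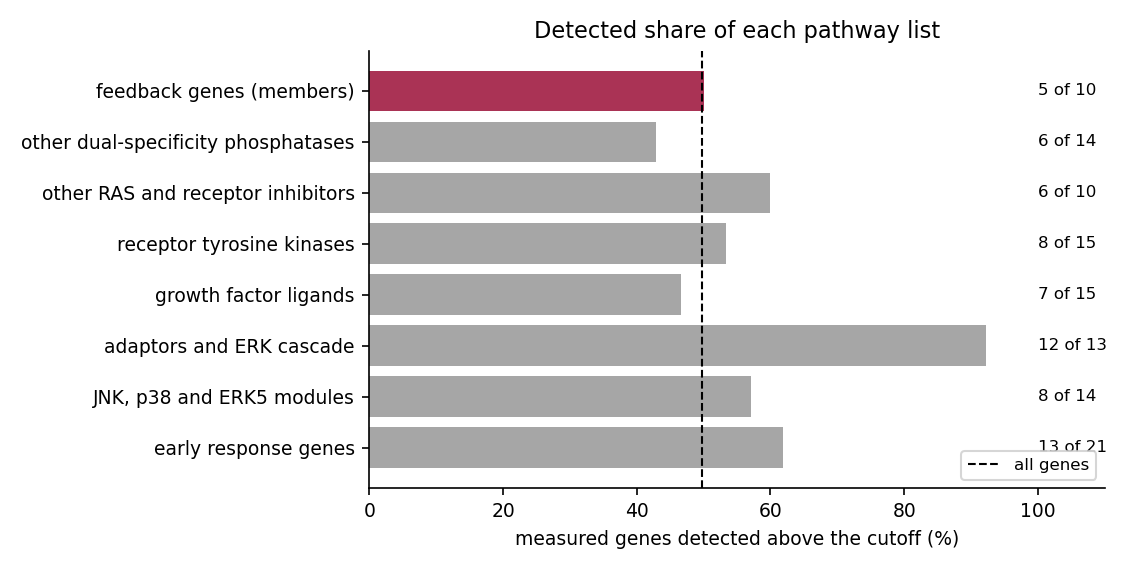
Share of the measured genes of each pathway list that was detected above the cutoff, with the count beside each bar and a dashed line at the 49.8% of all genes. The feedback genes, at 5 of 10, end at the line, and the adaptors and ERK cascade, at 12 of 13, reach farthest past it of the lists shown.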

How the data were processed

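The members and gene lists were chosen with earlier results of these data known. The deposited values are linear intensities, 1 for each probe set on each array, and how the authors summarised the probes is not given in the sources used here. Per the labels' protocols, cRNA was labelled with biotin by the Affymetrix procedure. With the lowest and highest 2% left out, the mean signal was 1000.0 on every array, so arrays had been brought to one scale, and log2 was taken with no pseudocount. Median signals were 256, 287 and 267, and precision is limited by the number of arrays. Of 31099 probe sets, 57 were controls, 20832 had 1 gene in the platform annotation, 436 had several and 9774 had none. Only those with 1 gene were used, and 20764 of them were found in the RefSeq gene table (GRCr8). A gene was represented by its probe set of highest mean log2. Of 81 listed other-tissue genes 75 were measured. The cutoff lay between Lhb and Mbp. Detection was tested with limma 3.58.1 in R 4.3.3 (lmFit, eBayes, one-sided). A check on simulated data required calls only for genes placed far above the cutoff, and so gives no backing to calls at small margins. Array differences were taken after centring each array on its median gene. Named are all members, the 3 detected genes with the largest margin and the lowest gene of each pathway list, the 2 with the largest margin of each cell type list, and the 5 genes nearest in profile. Alternatives covered normalization, pseudocount, filter, cutoff, probe set rule, spread model, centring and single arrays.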

Additional observations from a re-analysis of the deposited data

How the results depend on the processing

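The detection call held for Dusp1 and Errfi1 under all 13 alternatives, which were a common 75th percentile, quantile normalization, a pseudocount of 16, 4 other cutoffs, the mean of a gene's probe sets, a filter on mean signals under 100, a trend in eBayes, and each array left out. Dusp6 and Spry2 lost it at the 99th percentile only. That cutoff left 2 feedback genes, 5 early response genes and 910 genes in all, and the TrpnX cutoff gave 9 feedback genes and 11139 genes in all. Mean log2 margins that changed sign were, at the 99th percentile, Dusp5 at -2.28, Spry1 at -1.51 and Spry4 at -2.80. At the 90th percentile they were Dusp2 at 0.59 and Dusp10 at 0.39, and at TrpnX Dusp2 at 2.46, Dusp10 at 2.27 and Dusp4 at 0.094. These shifts follow from moving the cutoff itself. Dusp5 and Spry4 were called at TrpnX, at the 90th percentile, without Myh1 and with the mean of all probe sets, which lowers the cutoff to between 326 and 394. Leaving out 1 array gave 4 to 5 feedback genes, 12 to 14 early response genes and 6625 to 6903 genes. The count of feedback genes highest on replicate 3 was 5, 4 with quantile normalization, 6 with the mean of all probe sets and 6 without centring (this last added after seeing the data). That of genes lowest on replicate 1, and its alternatives, were all chosen after seeing the data. It was 7, and 8 with the mean of all probe sets. The shares of all genes given above are for centred values, and none was computed under these alternatives. Without centring, the median gene itself had log2 signals of 9.32, 9.41 and 9.43 on replicates 1, 2 and 3. No paired analysis was possible because there is 1 group. Signals near or below the cutoff limit what can be said of Dusp2, Dusp4 and Dusp10.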

Other observations

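The genes whose profile over the 3 arrays lay nearest to the median profile of the 5 detected feedback genes (-0.30, 0.04 and 0.27 log2 units around its mean) were Lpin1, Bcr, Rhob, Wipi1 and Hpgd. Lpin1 encodes a phosphatidate phosphatase, Rhob an early-induced small GTPase and Hpgd the enzyme that inactivates prostaglandins. Rhob had signals of 13974, 18843 and 22080, and Hpgd had 1238, 1629 and 1980. Lpin1 had 516, 689 and 824, close to the cutoff, and was the only one of these genes not detected (limma, adjusted p = 0.0885). The distances, in log2 units over 3 arrays, ran from 0.011 for Lpin1 to 0.025 for Hpgd. Since 51 of 7865 genes lay within 0.1 of that profile, nearness over 3 arrays singles out no gene.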
